A study of Homo sapiens with 5 samples.

Results

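CHGA, CHGB, SCG2, SCG3, SCG5, SYP, ENO2, NCAM1 and INSM1 are marker genes of neuroendocrine cells. They were taken by name as a list of 9 genes among the 26506 of the deposited tables, and all 9 were present. They were followed by RNA sequencing in 5 cultures of 22Rv1, an established line of human prostate carcinoma cells that had received lentivirus 72 hours before collection in medium with 10% serum. The groups were cells given ESM1, with Vector-1 as their control, and cells given ESM1-NLS or ESM1-NES, with Vector-2 as the control of both. ESM1 encodes endocan, a secreted proteoglycan, and NLS and NES usually stand for signals of nuclear localisation and of nuclear export, which the labels leave unexplained. The labels name neither the promoter of the transgene nor a selection step. Every group is a single library, so differences have no replicate behind them and no test across samples was possible. The transgene was at 2436.7 FPKM (fragments per kilobase of transcript, scaled to library size, a level per length) with ESM1, at 2627.2 with ESM1-NLS and at 3431.3 with ESM1-NES, and was listed at 0 in either vector.

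Neuroendocrine cells of the prostate epithelium store peptide hormones in dense core granules and release them on stimulation. Granins are acidic proteins that fill these granules, and together with synaptophysin, neuron-specific enolase and the adhesion molecule NCAM1 they serve as diagnostic stains for neuroendocrine prostate cancer. Such tumours can emerge from adenocarcinoma under androgen deprivation. REST, a repressor of neuronal genes in other cells, is known to keep many of these markers low.

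Upstream sequences are shown for CHGA, which differed most between the experiments, for ENO2, which had the highest level, and for SYP, which lay above its vector with each form. CHGB also lay above its vector with each form, but it had no match among the promoter sequences. Each is the 250 bases before the gene's start in RefSeq on GRCh38.p14, 5′ to 3′ on the gene's strand. The deposited values rest on hg19, and no position was carried from one build to the other. Of the 9 genes, 5 matched the promoter table by symbol. Capitals mark matches, on either strand, to the cyclic AMP response element TGACGTCA, to the AP-1 site, to the GC box or to the TATA box.
CHGA, chr14:92922900-92923149, plus strand: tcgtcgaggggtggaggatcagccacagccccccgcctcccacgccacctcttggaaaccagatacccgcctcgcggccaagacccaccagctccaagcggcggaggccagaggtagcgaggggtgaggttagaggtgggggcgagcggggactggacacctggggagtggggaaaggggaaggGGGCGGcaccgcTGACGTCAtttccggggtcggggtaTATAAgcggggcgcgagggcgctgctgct
ENO2, chr12:6914330-6914579, plus strand: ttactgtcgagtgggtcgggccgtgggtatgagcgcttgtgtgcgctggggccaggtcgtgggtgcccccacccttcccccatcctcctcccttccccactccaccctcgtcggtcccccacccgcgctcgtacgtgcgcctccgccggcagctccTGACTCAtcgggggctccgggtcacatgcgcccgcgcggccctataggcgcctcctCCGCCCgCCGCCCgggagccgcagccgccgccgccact
SYP, chrX:49200194-49200443, minus strand: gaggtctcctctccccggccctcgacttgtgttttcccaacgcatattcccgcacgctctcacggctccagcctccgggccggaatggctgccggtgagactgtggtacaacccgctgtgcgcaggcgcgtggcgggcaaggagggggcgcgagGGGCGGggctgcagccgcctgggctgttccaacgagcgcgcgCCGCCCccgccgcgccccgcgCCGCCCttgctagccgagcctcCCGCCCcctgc
The AP-1 site was searched as TGACTCA, the GC box as GGGCGG and the TATA box as TATAA, each with its reverse complement.
In the CHGA window the cyclic AMP response element begins 54 bases before the start, the GC box 66 bases and the TATA box 29 bases before it. The ENO2 window holds an AP-1 match at 94 bases and 2 GC boxes, and the SYP window holds 4 GC boxes. The SCG5 window, not printed, holds 1 GC box, and that of SCG3 holds none of these motifs. Of 35116 promoter windows of this length, 1.65% hold the cyclic AMP response element, 4.2% an AP-1 match, 42.6% a GC box and 18.9% a TATA box. A match describes letters and is not a site of binding.

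The markers above a few reads lay in 3 tiers that did not overlap in any library: ENO2 and SYP, then SCG3 and CHGB, then SCG5, CHGA and SCG2. ENO2, the gamma enolase of neurons and a glycolytic enzyme, had FPKM levels of 64.48 in ESM1, 78.63 in Vector-1 and, in the other experiment, 97.19 with ESM1-NLS, 88.23 with ESM1-NES and 90.39 with Vector-2. SYP, which encodes the vesicle protein synaptophysin, had FPKM levels of 37.55 in ESM1, 34.95 in Vector-1 and, in the other experiment, 41.96 with ESM1-NLS, 46.35 with ESM1-NES and 39.38 with Vector-2. ENO2 was lowest in ESM1 and highest in ESM1-NLS, whereas SYP was lowest in Vector-1 and highest in ESM1-NES.

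SCG3, a granin that helps to sort chromogranin A into granules, had FPKM levels of 21.37 in ESM1, 21.8 in Vector-1 and, in the other experiment, 19.6 with ESM1-NLS, 17.76 with ESM1-NES and 18.31 with Vector-2. CHGB, which encodes chromogranin B, a core protein of the granule, had FPKM levels of 18.82 in ESM1, 17.21 in Vector-1 and, in the other experiment, 16.08 with ESM1-NLS, 15.06 with ESM1-NES and 14.05 with Vector-2. SCG3 was above CHGB in every library, but in ESM1 the exact 95% Poisson interval of SCG3 (20.04 to 22.8 FPKM) overlapped that of CHGB (17.4 to 20.3 FPKM). Both granins were higher in ESM1 and Vector-1 than in Vector-2.

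CHGA, which encodes chromogranin A, the most used serum and tissue marker of neuroendocrine tumours, had FPKM levels of 1.01 in ESM1, 0.98 in Vector-1 and, in the other experiment, 3.66 with ESM1-NLS, 2.81 with ESM1-NES and 3.17 with Vector-2. ESM1 and Vector-1, which share a table, were both below the libraries of the other table. SCG5, which encodes 7B2, a chaperone of the convertase PCSK2, had FPKM levels of 1.88 in ESM1, 2.38 in Vector-1 and, in the other experiment, 2.27 with ESM1-NLS, 3.16 with ESM1-NES and 2.32 with Vector-2. SCG2, which encodes secretogranin II, the precursor of secretoneurin, had FPKM levels of 0.97 in ESM1, 1.01 in Vector-1 and, in the other experiment, 1.04 with ESM1-NLS, 0.89 with ESM1-NES and 1.43 with Vector-2. The order of these low granins was not stable: SCG5 led in ESM1, Vector-1 and ESM1-NES, CHGA led in ESM1-NLS and Vector-2, and the intervals of CHGA and SCG5 overlapped in ESM1, ESM1-NES and Vector-2.

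INSM1, a zinc finger transcription factor of endocrine precursors, was listed at 0 in ESM1 and Vector-1 and had 1 read in ESM1-NLS, 0 reads in ESM1-NES and 2 in Vector-2. NCAM1, a neural cell adhesion molecule, was listed at 0 in ESM1 and at 0.01 FPKM in Vector-1, and had 1 read in ESM1-NLS and none in ESM1-NES or Vector-2. Neither gene was detected beyond a few reads, a count of 0 allows up to 3 reads at the same depth, and no fold is given. NCAM2, a relative of NCAM1, was well above these levels, with FPKM of 8.41 in ESM1, 9.05 in Vector-1 and, in the other experiment, 10.84 with ESM1-NLS, 8.98 with ESM1-NES and 11.08 with Vector-2.

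**Figure D1:**
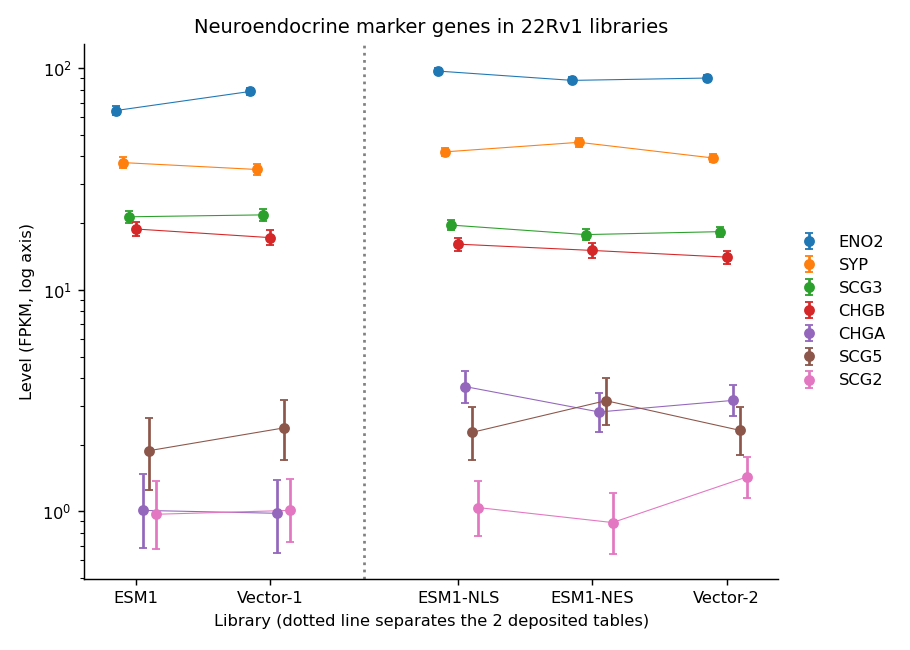
Level in FPKM (log axis) of the 7 marker genes above a few reads, by library, with bars for the exact 95% Poisson interval of the reads. ENO2, SYP, SCG3 and CHGB form the upper tiers in every library, and CHGA lies near 1 FPKM in ESM1 and Vector-1 and higher in the other libraries.

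The cells carried a luminal epithelial profile beside these markers. All 10 luminal markers examined had a mean of 1 FPKM or more, and their summed level lay between 1227 and 1420 FPKM. Of 4 basal markers 1 did, and their sum was between 0.94 and 1.87 FPKM. RBFOX3, a marker of mature neurons, stayed at 0.02 FPKM or less. Sums of 5 leukocyte markers were between 1.21 and 3.1 FPKM, and those of 4 endothelial markers at most 0.07 FPKM. Sums of 7 stromal markers were between 5.31 and 10.79 FPKM and those of 7 neuronal markers between 29.95 and 36.85 FPKM. MAP2, a neuronal microtubule protein, gave between 14.37 and 19.52 FPKM of the last sums. SLC17A7, a neuronal glutamate transporter, gave between 7.72 and 14.73 FPKM of them. A mean of 1 FPKM or more was reached by 3 of 7 neuronal and 3 of 7 stromal markers. The same held for 1 of 5 leukocyte and 0 of 4 endothelial markers. In bulk RNA, fewer cells of a type and less RNA per cell cannot be told apart. Depth was 13880000 reads in ESM1 and 15260000 in Vector-1, both estimated, and between 18447256 and 24322216 in the other libraries.

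ESM1 against Vector-1 asks what the form without an added signal does to the markers. ENO2 was lower with ESM1, at 64.48 FPKM with ESM1 and 78.63 with Vector-1, and the ratio was 0.82 (0.775 to 0.868). The parentheses hold an exact 95% conditional binomial interval, which covers counting error only, and later values followed by such an interval are likewise ratios of FPKM. The ENO2 difference of log2(FPKM + 1) was -0.28, where genes of like length and GC content had a median of 0.05. ENO1, the enolase of most tissues, lay the other way at 1.1 (1.08 to 1.13).

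No other marker left 1 by its counting interval. CHGB had a ratio of 1.09 (0.981 to 1.22), SYP one of 1.07 (0.992 to 1.16) and SCG3 one of 0.98 (0.898 to 1.07). SCG5 had 0.79 (0.477 to 1.29), on about 30 reads in ESM1 and 42 in Vector-1. CHGA, at 1.03 (0.591 to 1.8), and SCG2, at 0.96 (0.588 to 1.56), averaged under 1 FPKM and were not counted. Of the 5 markers counted, 0 were 1.5-fold higher and 0 were 1.5-fold lower, where 1.19% and 0.325% of 12296 genes were. An interval above 1 was found for 0 of 5 and one below 1 for 1 of 5, where 18% and 17% of genes had one. The markers' median difference was -0.03 and that of all genes 0.01.

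ESM1-NLS against Vector-2 asks the same of the form with the NLS. Differences were small and mostly upward. CHGB had 16.08 FPKM with ESM1-NLS and 14.05 with Vector-2, a quotient of 1.14 (1.04 to 1.26). ENO2 followed at 1.08 (1.03 to 1.12), SYP at 1.07 (1.003 to 1.13), SCG3 at 1.07 (0.992 to 1.16) and CHGA at 1.15 (0.913 to 1.46). SCG5 was at 0.978 (0.668 to 1.43). SCG2 was the lowest marker, with 52 reads in ESM1-NLS and 87 in Vector-2, or 0.727 (0.506 to 1.04) by FPKM.

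Of 7 markers counted, 0 were 1.5-fold higher and 0 lower, beside 0.377% and 0.5% of 13000 genes. Intervals above 1 were found for 3 of 7 (CHGB, ENO2 and SYP), beside 22.5% of genes, and below 1 for 0 of 7, beside 16.8%. The median was 0.09, and 0.02 over all genes. Set against genes of like length and GC content, 0.08 was left for CHGB, 0.12 for SCG3, -0.01 for ENO2, -0.07 for SYP and -0.03 for CHGA, so that the last 3 turned sign.

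ESM1-NES against Vector-2 split the markers. SYP was higher, at 46.35 FPKM with ESM1-NES and 39.38 with Vector-2, or 1.18 (1.11 to 1.25). SCG2 was lower, at 0.89 FPKM with ESM1-NES and 1.43 with Vector-2, or 0.622 (0.418 to 0.912), on 41 and 87 reads. SCG5 had a ratio of 1.36 (0.956 to 1.94), CHGB one of 1.07 (0.97 to 1.18), ENO2 one of 0.976 (0.936 to 1.02), SCG3 one of 0.97 (0.895 to 1.05) and CHGA one of 0.886 (0.683 to 1.15). The intervals of these 5 all held 1.

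Of 7 markers counted, 0 were 1.5-fold higher and 0 lower on the log2(FPKM + 1) scale, beside 0.395% and 2.17% of 12902 genes. SCG2 is past 1.5-fold as a plain ratio, but its difference on that scale, -0.36, is not. Intervals above 1 were found for 1 of 7 and below 1 for 1 of 7, beside 24.2% and 32.7%. The median was -0.03, and -0.03 over all genes. With TPM, which fixes each library's total, the median of all genes shifted by -0.11, SYP stood at 1.08, ENO2 at 0.897 and SCG3 at 0.892, and CHGB turned to 0.986. Beside genes of like length and GC content 0.05 was left for SYP, -0.26 for SCG2 and -0.37 for CHGA.

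**Figure D2:**
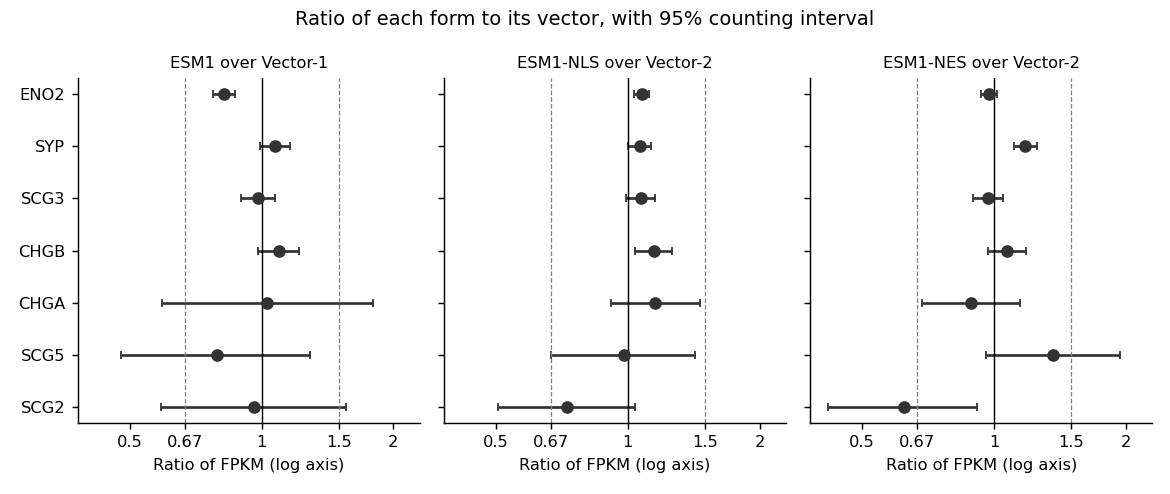
Ratio of FPKM (log axis) of each form to its vector for 7 marker genes, with exact 95% counting intervals and dashed lines at 1.5-fold either way. ENO2 lies below 1 in ESM1 at 0.82 and SYP lies above 1 in ESM1-NES at 1.18, and the granins of few reads have wide intervals.

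ESM1-NLS against ESM1-NES sets the tagged forms side by side within a table. CHGA had 3.66 FPKM with ESM1-NLS and 2.81 with ESM1-NES, a quotient of 1.3 (1.004 to 1.7). ENO2 stood at 1.1 (1.05 to 1.15) and SCG3 at 1.1 (1.02 to 1.2), while SYP stood at 0.905 (0.85 to 0.964). CHGB at 1.07 (0.965 to 1.18), SCG5 at 0.718 (0.492 to 1.04) and SCG2 at 1.17 (0.761 to 1.8) had intervals that held 1, and SCG2 averaged under 1 FPKM. Of 6 markers counted, 3 had an interval above 1 and 1 below it, beside 33% and 15.4% of genes. At 1.5-fold 0 were higher and 0 lower, beside 0.782% and 0.356% of 12915 genes. The markers' median difference was 0.11 and that of all genes 0.06. TPM shifted the median of all genes by 0.13, and SYP then stood at 0.994. Beside genes of like length and GC content -0.005 was left for SCG3, 0.15 for ENO2, -0.13 for SYP and 0.33 for CHGA on the log2 scale.

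Prohormone processing and granule cargo came first among the related lists. Of 15 genes 10 had a mean of 1 FPKM or more, and the convertases PCSK1 and PCSK2, which cut prohormones, stayed at 0.12 and 0.23 FPKM or less. SLC18A1, a vesicular amine transporter, was listed at 0 throughout. HID1, a protein needed to make dense core granules, had 1.36 (1.25 to 1.47) in ESM1, 1.25 (1.18 to 1.32) in ESM1-NLS and 1.25 (1.19 to 1.32) in ESM1-NES. PCSK1N, which encodes the granin-like convertase inhibitor proSAAS, had 1.3 (1.1 to 1.52), 1.19 (1.07 to 1.32) and 1.25 (1.12 to 1.38) in the same order. Both lay above their vector with each form, but beside genes of like length and GC content PCSK1N kept 0.00, 0.13 and 0.10 on the log2 scale, and HID1 0.33, 0.13 and 0.17. For PCSK1N there were only 8, 9 and 8 such genes. Other members lay below Vector-1 in ESM1, among them VGF, a granin-like secretory protein, at 0.819 (0.789 to 0.851), CPD at 0.793 (0.75 to 0.838) and CPE, the carboxypeptidase of granules, at 0.908 (0.848 to 0.972).

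Medians of the list were -0.06 in ESM1, 0.11 in ESM1-NLS and 0.08 in ESM1-NES, and the last turned to -0.03 with TPM. SCGN, which encodes the calcium sensor secretagogin, was the single member past 1.5-fold on the log2(FPKM + 1) scale, used for all such counts. It had 1.68 FPKM with ESM1-NLS and 3.04 with Vector-2, or 0.553 (0.383 to 0.787). In that comparison 0.5% of 13000 genes were at least 1.5-fold lower. CPD, a carboxypeptidase of the secretory pathway, had 0.709 (0.674 to 0.745) in ESM1-NES, where genes of like length and GC content had a median log2 difference of -0.42 and CPD one of -0.47. QPCT, which forms the cyclic end of some peptides, had 0.536 (0.288 to 0.963) in ESM1, on about 18 and 38 reads. That is past 1.5-fold as a plain ratio but at -0.47 on the log2(FPKM + 1) scale.

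Of 19 genes of regulated exocytosis, 17 were counted in ESM1, 17 in ESM1-NLS and 16 in ESM1-NES, and 0 passed 1.5-fold either way on the log2(FPKM + 1) scale, beside the shares of all genes given above for each comparison. STX1A, a syntaxin of the membrane fusion complex, was at 28.11 FPKM with ESM1-NLS and 27.13 with ESM1-NES, beside 20.97 with Vector-2, or 1.34 (1.23 to 1.46) and 1.29 (1.19 to 1.41). In ESM1 it had 1.01 (0.904 to 1.14). In the tagged forms the log2 differences of STX1A were 0.41 and 0.36, where genes of like length and GC content had 0.17 and 0.21. RAB3A, a GTPase of secretory vesicles, had 1.28 (1.14 to 1.44) in ESM1-NLS. In ESM1-NES it had 1.14 (1.01 to 1.29) and in ESM1 0.975 (0.774 to 1.23). RAB3A had log2 differences of 0.34 and 0.18 in the tagged forms, where such genes had 0.14 and 0.26. Its relatives RAB3B and RAB27B had 0.656 (0.606 to 0.71) and 0.741 (0.678 to 0.809) in ESM1-NES, where genes of like length and GC content had medians of -0.50 and -0.38 beside their own -0.50 and -0.38. RAB3B is past 1.5-fold as a plain ratio only. Medians of the list were -0.03 in ESM1, 0.02 in ESM1-NLS and -0.06 in ESM1-NES.

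Of 14 transcription and splicing factors, 5 were counted in ESM1, 7 in ESM1-NLS and 6 in ESM1-NES. NEUROD1, which drives neuroendocrine lineages, stayed at 0.04 FPKM or less. ONECUT2, a homeodomain factor known to promote neuroendocrine traits in prostate cancer, was at 2.72 FPKM with ESM1-NLS and 2.46 with ESM1-NES, beside 4.38 with Vector-2. These are ratios of 0.621 (0.572 to 0.674) and 0.562 (0.514 to 0.613), the second of them past 1.5-fold on the log2(FPKM + 1) scale. In ESM1-NES 2.17% of 12902 genes were at least 1.5-fold lower. Genes of like length and GC content, of which there were 20 and 18, had medians of -0.43 and -0.68, beside -0.53 and -0.64 for ONECUT2.

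SRRM4, a splicing factor for neuronal exons, had 0.828 (0.796 to 0.862) in ESM1-NLS and 0.74 (0.709 to 0.772) in ESM1-NES, and 1.07 (0.996 to 1.15) in ESM1. Its log2 differences were -0.26, -0.42 and 0.09, beside medians of -0.09, -0.24 and -0.05 for genes of like length and GC content. HES6, a factor of neuronal differentiation, had 1.29 (1.03 to 1.62) in ESM1, and NKX2-1, a factor of lung and thyroid lineages, 1.35 (0.993 to 1.83) in ESM1-NLS. Their log2 differences were 0.33 and 0.28, beside 0.27 and 0.18 for genes of like length and GC content. The list's medians were 0.11 in ESM1, 0.02 in ESM1-NLS and -0.15 in ESM1-NES. The 0.11 turned to -0.45 with Vector-2 as control. The 0.02 turned to -0.04 with no filter and to -0.12 among genes that averaged at least 5 FPKM.

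REST and its corepressors, 14 genes, were all counted. Of them 0 passed 1.5-fold against a vector, beside the shares of all genes given above for each comparison. REST had FPKM levels of 15.51 in ESM1, 18.3 in Vector-1 and, in the other experiment, 11.4 with ESM1-NLS, 8.68 with ESM1-NES and 12.56 with Vector-2. It was below its vector with each form, with ratios of 0.848 (0.793 to 0.906) for ESM1, 0.908 (0.851 to 0.968) for ESM1-NLS and 0.691 (0.643 to 0.743) for ESM1-NES. Genes of like length and GC content had medians of -0.07, -0.05 and -0.21 in the same order, beside -0.23, -0.13 and -0.49 for REST. The corepressors RCOR1 and RCOR3 had 0.733 (0.677 to 0.793) and 0.747 (0.683 to 0.817) in ESM1-NES, and HMG20B, a subunit of the same complex, 1.21 (1.17 to 1.26). The log2 difference of HMG20B was 0.28, as was the median of genes of like length and GC content, 0.28. The list's medians were -0.04, 0.01 and -0.10, beside -0.03, 0.09 and -0.03 for the markers.

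Among 13 peptide and amine genes, SST, which encodes somatostatin, and TH, of dopamine synthesis, were listed at 0 throughout and 5 were counted. DDC, an enzyme of dopamine and serotonin synthesis, had 10.83 FPKM with ESM1 and 6.95 with Vector-1, or 1.56 (1.3 to 1.87). Its log2 difference of 0.57 was just short of 1.5-fold. PTHLH, which encodes parathyroid hormone-related protein, had 0.689 (0.555 to 0.853) in ESM1, ADM, which encodes adrenomedullin, 0.792 (0.557 to 1.12) in ESM1, and CALCA, the calcitonin gene, 1.63 (0.985 to 2.72) in ESM1-NES. Of 11 other tumour markers 6 were counted and 0 passed 1.5-fold against a vector, beside the shares given above for all genes. TUBB3, a neuronal tubulin, was above its vector with each form, at 1.27 (1.18 to 1.37) in ESM1, 1.12 (1.06 to 1.18) in ESM1-NLS and 1.21 (1.14 to 1.27) in ESM1-NES. Beside genes of like length and GC content 0.22, -0.02 and 0.02 was left on the log2 scale. DLL3, an inhibitory Notch ligand, had 1.31 (0.982 to 1.76) and L1CAM, an adhesion molecule, 1.29 (1.06 to 1.56) in ESM1-NLS, and SEZ6, a neuronal membrane protein, 1.27 (1.13 to 1.44) in ESM1-NES. These genes lay below Vector-1 in ESM1, DLL3 at 0.786 (0.451 to 1.35), L1CAM at 0.829 (0.645 to 1.06) and SEZ6 at 0.789 (0.678 to 0.918). Beside genes of like length and GC content 0.05 was left for DLL3 and 0.10 for L1CAM in ESM1-NLS, and 0.21 for SEZ6 in ESM1-NES. Medians for ESM1, ESM1-NLS and ESM1-NES were -0.26, -0.08 and 0.15 over the peptide and amine genes and -0.17, 0.13 and 0.17 over the other tumour markers. The -0.26 turned to 0.12 among genes that averaged at least 5 FPKM, and to 0.32 with Vector-2 as control.

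**Figure D3:**
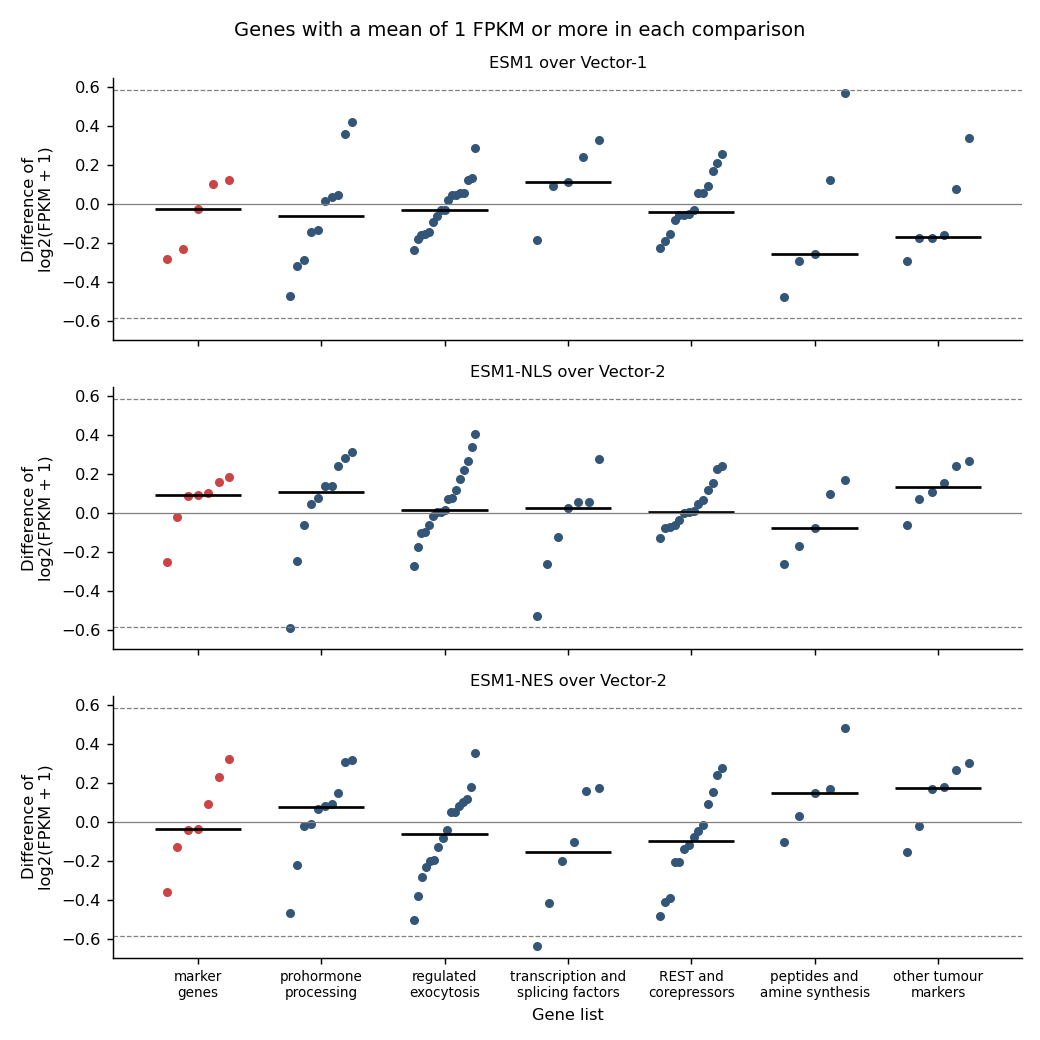
Difference of log2(FPKM + 1) between each form and its vector for the marker genes (red) and 6 related lists (blue), for genes that averaged at least 1 FPKM. Black bars are medians and dashed lines mark 1.5-fold; SCGN in ESM1-NLS and ONECUT2 in ESM1-NES lie past a dashed line.

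Vector-2 against Vector-1 shows how the empty vectors of the experiments differ. They stand in tables normalised separately, and experiment, table and library cannot be told apart. CHGA had 3.17 FPKM with Vector-2 and 0.98 with Vector-1, or 3.23 (2.16 to 4.99), and 3.01 by TPM. It was the 1 marker of 7 at least 2-fold higher, beside 3.67% of 12685 genes, and 0 were 2-fold lower, beside 1.08%. At 1.5-fold the counts were 1 higher and 0 lower, beside 14.3% and 4.93%. Intervals above 1 were found for 3 of 7 and below 1 for 2 of 7, beside 43.4% and 28.1%.

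The other granins had no common direction: CHGB had 0.816 (0.738 to 0.904), SCG3 0.84 (0.776 to 0.91), SCG5 0.975 (0.652 to 1.47) and SCG2 1.42 (0.96 to 2.12). ENO2 had 1.15 (1.1 to 1.2) and SYP 1.13 (1.05 to 1.21). The markers' median difference of log2(FPKM + 1) was 0.17 and that of all genes 0.10. CHGA had 1.07, or 0.98 when centred on the median of all genes. Beside genes of like length and GC content 0.73 was left for CHGA, 0.05 for ENO2 and -0.07 for SYP. CHGB kept -0.41 and SCG3 -0.16. KLK3, which encodes prostate-specific antigen, had 2.14 (1.83 to 2.51), and TMPRSS2, another luminal gene, 0.798 (0.716 to 0.889). Of the 10 luminal markers 6 had an interval above 1 and 3 below it, beside 43.4% and 28.1% of all genes. Their part in the result was not tested.

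Among the related lists, CADPS2, a priming factor of dense core granules, had 2.75 (2.5 to 3.03), SRRM4 2.5 (2.36 to 2.64), HES6 2.46 (2.06 to 2.97), PHF21A, of the REST corepressor complex, 2.41 (2.17 to 2.68) and RAB3A 2.26 (1.89 to 2.7). POU3F2, which encodes the neural factor BRN2, lay the other way at 0.361 (0.313 to 0.416), with 3.21 FPKM in Vector-2 and 8.89 in Vector-1. REST had 0.686 (0.646 to 0.729). At 1.5-fold 3 of 17 exocytosis genes were higher and 1 lower, and 3 of 7 transcription and splicing factors were higher and 1 lower, beside 14.3% and 4.93% of all genes.

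**Figure D4:**
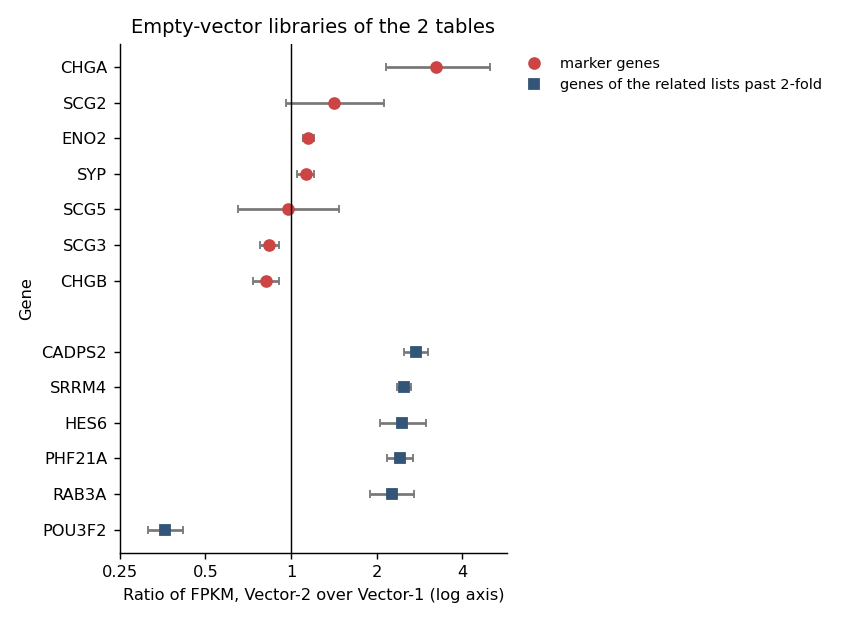
Ratio of FPKM (log axis) of Vector-2 over Vector-1, with exact 95% counting intervals, for 7 marker genes (red circles) and the genes of the 6 related lists at least 2-fold apart on the log2(FPKM + 1) scale (blue squares). CHGA lies at 3.23, and POU3F2 is the square below 1, at 0.361.

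SCG2 in ESM1-NES had the largest difference of log2(FPKM + 1) of the counted markers against a vector. That place depends on the scale: with a pseudocount of 5 SCG2 had -0.13 and ENO2 in ESM1 -0.27, and beside genes of like length and GC content CHGA in ESM1-NES, at -0.37, and ENO2 in ESM1, at -0.33, were past SCG2, at -0.26. The genes nearest to it by Euclidean distance over the 3 differences against the vectors were sought among 9196 genes that averaged at least 5 FPKM. They were LOC101927374 at 0.0471, LEMD3, a protein of the inner nuclear membrane, at 0.0478, and STXBP3, a partner of syntaxins, at 0.0501. STXBP3 had -0.06 in ESM1, -0.24 in ESM1-NLS and -0.32 in ESM1-NES, and SCG2 had -0.03, -0.25 and -0.36. The pseudocount of 1 shrinks the differences of SCG2, near 1 FPKM, more than those of its neighbours: with 0.1 it had -0.42 in ESM1-NLS and -0.63 in ESM1-NES. The distance rests on 5 libraries, with Vector-2 used in 2 of the differences.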

How the data were processed

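Total RNA of 22Rv1 cultures was sequenced in 5 libraries, 1 per group, grouped by title; the design text gives each form's vector. Trimmomatic, Bowtie2, RSEM and hg19 are named, per the submitters' processing notes, with neither versions nor order. No source used here gives strandedness, so reads of SCG3, SCG5, SYP and NCAM1 cannot be told apart from those of antisense genes that overlap them, and ENO2 overlaps LRRC23 on the same strand.

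The authors deposited expected counts, TPM and FPKM for ESM1-NLS, ESM1-NES and Vector-2, per the file headers. The deposited table of ESM1 and Vector-1 names no unit and was taken as FPKM from its values, and its TPM was rescaled from them. Its depth is the factor that brought values of short genes closest to whole reads, with 93.7% of 254 values in ESM1 and 92.6% of 230 in Vector-1 within a tolerance of 0.15 reads. ESM1 and Vector-1 have no expected counts, and their reads were rebuilt from level, estimated depth and the effective length in the other libraries. Their read counts and intervals are therefore approximate. Reads were rounded for intervals, which use exact formulas (95%, Clopper-Pearson for ratios, Poisson for levels) and cover counting error only.

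Differences are of log2(FPKM + 1), which understates changes of low genes. Counts cover genes whose mean reached 1 FPKM. Genes of like length and GC content are within 0.8 to 1.25 times the effective length and 3 percentage points of GC, from GENCODE transcripts of a newer build. The comparison was also run on simulated Poisson counts of known depth. These hold neither variation between cultures nor error of the estimated depth, so those limits were not tested. Python 3.11.15, scipy 1.17.1 and pandas 2.3.3 were used.

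The 9 genes and the 15 lists were chosen with earlier results of these data known. Named genes were ESM1, the 9 markers, up to 4 genes per list with the largest difference against a vector, genes listed at 0 throughout, and the 3 genes nearest to the marker with the largest difference. PCSK1, PCSK2, PCSK1N, NEUROD1, VGF, CPE, ENO1, RBFOX3, MAP2, KLK3, TMPRSS2 and the genes 2-fold apart between the vectors were chosen after their values were seen. Not every gene of the lists is reported here.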

Additional observations from a re-analysis of the deposited data

Results flagged for a closer look

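CHGA, SCG3, SCG5 and ENO2 lay on opposite sides of Vector-2 in ESM1-NLS and ESM1-NES, with 1 library each, and whether the forms differ was not tested. The log2 difference of ESM1-NLS over ESM1-NES was 0.29 for CHGA, 0.135 for SCG3, -0.35 for SCG5 and 0.138 for ENO2. Over Vector-2, CHGA had 0.16 in ESM1-NLS and -0.13 in ESM1-NES, SCG3 0.09 and -0.04, SCG5 -0.02 and 0.33, and ENO2 0.10 and -0.03. Beside genes of like length and GC content, SCG3 had 0.12 and 0.12, SCG5 0.02 and 0.26, ENO2 -0.01 and -0.15, and CHGA -0.03 and -0.37, so that each lay on 1 side in both forms.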

How the results depend on the processing

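No paired analysis was possible because each group is 1 library, and for the same reason none could be left out. The markers' median difference moved less than a tolerance under the pseudocounts, filters and scalings tried. The tolerance was taken from the counting intervals of single markers and is not a counting limit of a median. With TPM the median went from -0.03 to -0.16 in ESM1-NES, and from 0.11 to 0.24 between the tagged forms. It moved past the tolerance with Vector-2 as control of ESM1, to -0.21. Of 130 single marker values tried, 17 moved beyond their counting interval and 9 took the other sign. Of 175 list medians 13 moved past a tolerance set likewise from the intervals of their genes. With Vector-2 as control, SYP in ESM1 turned to -0.07 and SCG3 to 0.21. Comparison with genes of like length and GC content, that of the vectors, and counts of intervals were added after the data were seen.

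Genes past 1.5-fold numbered 186 for ESM1 over Vector-1, 114 for ESM1-NLS and 331 for ESM1-NES over Vector-2, and 147 between the tagged forms. In that order, a pseudocount of 0.1 gave 425, 272, 735 and 385, one of 5 gave 36, 20, 43 and 16, and a mean of 5 FPKM or more gave 72, 39, 166 and 47. No filter gave 280 for ESM1, 210 for ESM1-NLS and 232 between the tagged forms. TPM gave 178 for ESM1-NLS, 798 for ESM1-NES and 421 between the tagged forms. Vector-2 as control gave 1869 for ESM1. The split between the tagged forms was 101 higher and 46 lower, 380 and 41 with TPM, and 60 and 72 when centred on the median of all genes. For ESM1 it was 146 and 40, and 173 and 88 with TPM. The causes were not tested. CHGA, SCG2 and SCG5 rest on about 28 to 152 reads a library, and smaller differences than their intervals were not detectable.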

Other observations

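Relatives of the markers were counted in 8 of 9 cases, with medians of -0.03 in ESM1, 0.01 in ESM1-NLS and 0.10 in ESM1-NES. Of them 0 passed 1.5-fold against a vector on the log2(FPKM + 1) scale, beside the shares of all genes given above. With TPM the last median turned to -0.01. SYNGR2, a vesicle protein of the synaptophysin family, had 141.3 FPKM with ESM1-NES and 112.2 with Vector-2, or 1.26 (1.21 to 1.31), and SYNGR3, a synaptic relative, 1.24 (1.1 to 1.41). Their log2 differences were 0.33 and 0.29, beside 0.23 and 0.25 for genes of like length and GC content. NCAM2 had 0.81 (0.742 to 0.885) in ESM1-NES, where genes of like length and GC content had a median log2 difference of -0.28 and NCAM2 one of -0.28. ENO3, the muscle enolase, had 1.43 FPKM with ESM1 and 2.35 with Vector-1, or 0.609 (0.369 to 0.983), below 1 like ENO2 and at -0.46 on the log2(FPKM + 1) scale. INSM2, the relative of INSM1, stayed at 0.46 FPKM or less.

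SLC17A7, a vesicular glutamate transporter of neurons chosen after its values were seen, had 7.72 FPKM with ESM1 and 11.79 with Vector-1, or 0.655 (0.567 to 0.755). In the other experiment it had 1.12 (1.02 to 1.23) in ESM1-NLS and 1.15 (1.04 to 1.26) in ESM1-NES. MAP2, of the same neuronal list, lay the other way in both, at 0.895 (0.846 to 0.945) in ESM1-NLS and 0.746 (0.703 to 0.793) in ESM1-NES. In these 2 comparisons SLC17A7 had log2 differences of 0.15 and 0.18, where genes of like length and GC content had 0.16 and 0.13. MAP2 had -0.15 and -0.40, where such genes had -0.06 and -0.27.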
